A study of Drosophila melanogaster with 15 samples.

Results

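The tubulin genes of Drosophila melanogaster were followed across RNA sequencing libraries of cells sorted from the adult testis. The family was taken as 10 named genes, which are 10 of the 17408 gene rows of the deposited count table. They are the alpha-tubulin genes alphaTub84B, alphaTub84D, alphaTub85E and alphaTub67C, the beta-tubulin genes betaTub56D, betaTub60D, betaTub85D and betaTub97EF, and the gamma-tubulin genes gammaTub23C and gammaTub37C. The genes were listed by name, with earlier results of these data known. The study asks which factors act in the somatic stem cells of the testis, and it holds 15 libraries, 3 in each of 5 groups.

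Every fly carried the tj-Gal4 driver, which is active in the somatic cyst lineage, together with UAS-GFPnls, and GFP-positive cells of the tj-Gal4 domain were sorted from males. The WT group had a second UAS-GFPnls copy and no other transgene under UAS control. The Chinmo group carried UAS-5'UTR-chinmo-3'UTR, with tub-Gal80TS as a temperature-sensitive brake on Gal4, and the Upd group carried UAS-Upd with UAS-GFP. The Ci group carried UAS-Ci5Ncm5 and UAS-Ci5m30, both forms of the Hedgehog pathway transcription factor Ci. The group labelled chinmo RNAi carried UAS-chinmoRNAi (HMS00036) with UAS-dcr2. Flies were 10 days old after eclosion, except in the group labelled chinmo RNAi, where they were 2 or 3 days old, so that its age and its transgenes cannot be told apart. Each library pooled 50 to 100 flies, or 100 to 200 testes, and no label names separate cultures or sorts behind the 3 libraries of a group. The p-values therefore measure only the spread between these libraries, which may be technical.

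Alpha- and beta-tubulin form the heterodimers that polymerise into microtubules, and gamma-tubulin sits in ring complexes that nucleate them. In the fly, alphaTub84B and betaTub56D serve as general isotypes in most cells, alphaTub85E and betaTub60D are tissue-restricted isotypes known from muscle and from somatic cyst cells of the testis, and betaTub85D is the testis isotype of male germ cells, used in the meiotic spindle and the sperm axoneme. The genes alphaTub67C and gammaTub37C are known as maternal isotypes of the ovary and early embryo.

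The libraries held 1143049 to 2943120 gene counts and 4983 to 13229 genes with a count, both lowest in library Chinmo 3, which stands apart from the rest. Tubulin calls in Chinmo that rest on it are given with and without it, while shares, ratios and summed levels of Chinmo include it. The manipulated gene was checked first. The level of chinmo was 100 CPM, 392 CPM and 761 CPM in the 3 Chinmo libraries, against 69.8 CPM to 75.2 CPM in WT (CPM, gene counts relative to a library size scaled by TMM). In the libraries labelled chinmo RNAi it was 147 CPM, 143 CPM and 61.4 CPM, below WT in 1 of 3, and directions drawn from that group rest on its label. The level of upd1 was 196 ± 16.7 CPM in Upd against 6.78 ± 4.64 CPM in WT, and ci was 329 ± 164 CPM in Ci against 27.6 ± 7.98 CPM in WT (mean ± SD, n = 3 throughout). The cyst lineage gene tj, whose driver marked the sorted cells, was at 16.9 CPM, 1.59 CPM and 0.475 CPM in WT and at 222 ± 23.2 CPM in Upd, so the labelled cell type has little of this defining marker in WT. In these bulk samples, fewer cells of a type and less RNA per cell cannot be told apart.

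In brief, 4 tubulin genes were lower in the Upd libraries than in WT, both general and tissue-restricted isotypes among them. In Upd alphaTub85E stood at 33.6 ± 30.8 CPM against 1738 ± 261 CPM in WT, betaTub85D at 9.45 ± 10.6 CPM against 752 ± 211 CPM, and betaTub60D at 319 ± 11.6 CPM against 1197 ± 114 CPM. The general alpha isotype alphaTub84B was also lower, at 1618 ± 18.1 CPM against 3846 ± 238 CPM. The general beta isotype betaTub56D had 1075 ± 71.0 CPM there and 1568 ± 318 CPM in WT, and did not pass the test. The libraries labelled chinmo RNAi had less betaTub85D than WT, at 78.1 ± 64.8 CPM, just past the threshold (edgeR, adjusted p = 0.0497). That call was lost in 5 of the 6 fits that left out 1 library of either group. The maternal isotype gammaTub37C, without a single count in 8 of the 12 other libraries, was present in every Upd library.

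**Figure D1:**
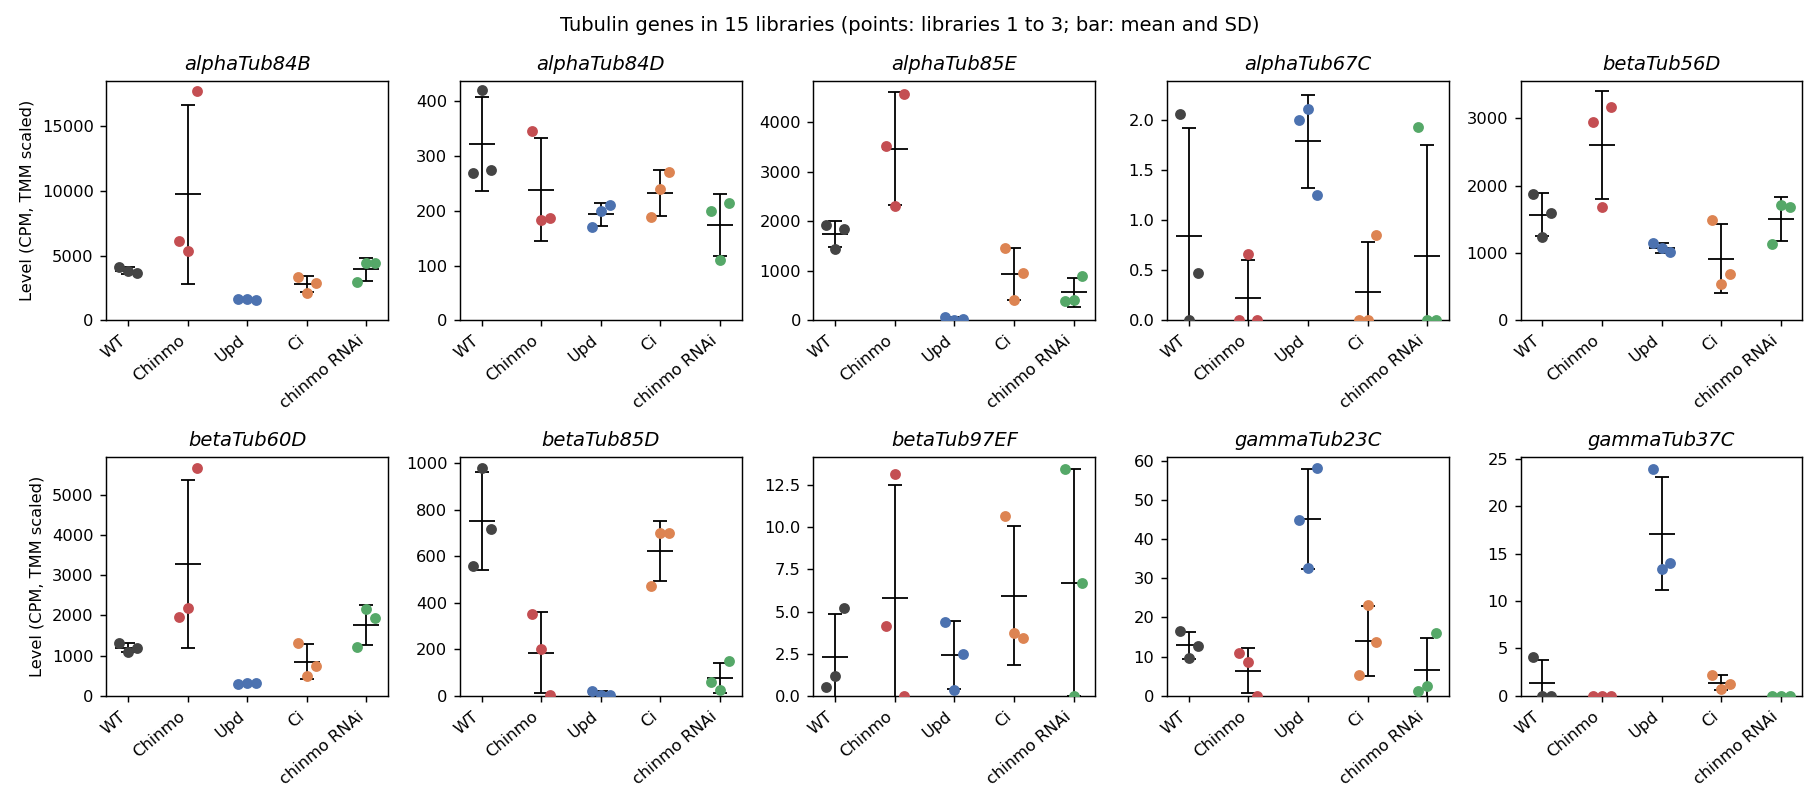
Level of each of the 10 tubulin genes (CPM after TMM scaling, linear axes from 0, a separate scale in each panel) in the 15 libraries. Points are libraries, and black bars are the group mean and SD (n = 3). The 3 Upd libraries lie at or near 0 for alphaTub85E and betaTub85D and highest of all libraries for gammaTub37C, and Chinmo 3 is the highest library for alphaTub84B, alphaTub85E and betaTub60D.

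Levels were compared between genes only per kilobase of exon. In WT, alphaTub84B was the highest of the 10 genes, at 2195 ± 136 CPM per kb, followed by alphaTub85E at 1114 ± 167 CPM per kb and betaTub56D at 839 ± 170 CPM per kb. The levels of betaTub60D, at 475 ± 45.3 CPM per kb, and betaTub85D, at 408 ± 114.7 CPM per kb, differed by less than the SD of betaTub85D. The remaining 5 genes were lower, from 163 ± 43.6 CPM per kb for alphaTub84D down to 0.521 ± 0.665 CPM per kb for alphaTub67C. In Upd the order changed below the first place. There betaTub56D was second at 575 ± 38.0 CPM per kb, while alphaTub85E was sixth at 21.6 ± 19.7 CPM per kb, at a level close to gammaTub23C at 24.4 ± 6.86 CPM per kb.

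The general alpha-tubulin gene alphaTub84B (BDGP6.54 annotation, chromosome arm 3R, 7086599 to 7088839, plus strand, 2 exons) had 4094 CPM, 3824 CPM and 3620 CPM in the WT libraries. The Upd libraries held 1632 CPM, 1624 CPM and 1598 CPM of it. All 3 lay below every WT library and were closer to each other than in any other group. The gene fell by 1.25 ± 0.35 on the log2 scale in Upd (SE, edgeR quasi-likelihood test, Benjamini-Hochberg adjusted p = 0.00791). Under upper-quartile scaling the log2 change was -1.01 and the call was lost (adjusted p = 0.0794).

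In Chinmo, alphaTub84B stood at 6151 CPM, 5372 CPM and 17705 CPM, above all WT libraries and with library 3 far above the others. The log2 change was 1.34 ± 0.35 (edgeR, adjusted p = 0.0475). Without Chinmo 3 it was 0.32 (adjusted p = 0.421), and without WT 1, WT 2 or WT 3 the call was also lost (adjusted p = 0.114, 0.175 and 0.161), as it was with DESeq2-type size factors, DESeq2, a replicate block and a fit of the 2 groups alone. The tub-Gal80TS transgene of this group is a Gal80 gene under the alphaTub84B promoter. In Ci the gene had 3373 CPM, 2127 CPM and 2856 CPM, all below WT. The group labelled chinmo RNAi had 2934 CPM, 4446 CPM and 4426 CPM, on both sides of the WT range. Neither group passed the test against WT. In the order of group means, Chinmo, chinmo RNAi, WT, Ci and Upd, only the first step was called (edgeR, adjusted p = 0.0422), and it missed the threshold without Chinmo 3 or any 1 of the chinmo RNAi libraries (adjusted p from 0.0692 to 0.217).

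The gene alphaTub84D (arm 3R, 7530753 to 7532732, plus strand, 1 exon) encodes an alpha-tubulin nearly identical to that of alphaTub84B, and reads from shared stretches can be split or dropped in counting, so the values of both are uncertain to that extent. Its level was 322 ± 86.2 CPM in WT, 239 ± 93.7 CPM in Chinmo, 194 ± 21.2 CPM in Upd, 233 ± 42.0 CPM in Ci and 174 ± 56.5 CPM in chinmo RNAi. The Upd libraries, at 170 CPM, 201 CPM and 210 CPM, lay below the WT libraries, at 270 CPM to 422 CPM, without overlap, and the log2 change of -0.73 ± 0.40 did not pass the test (edgeR, adjusted p = 0.164). With edgeR the gene was called in none of the 10 pairs of groups. A fit of the 2 groups alone called it lower in Upd than in WT (log2 change -0.85, adjusted p = 0.00935), and DESeq2 called it lower in chinmo RNAi than in WT (-1.21, adjusted p = 0.0343). In edgeR, in the test of any difference among the 5 groups, its adjusted p was 0.321. The ratio of alphaTub84D to alphaTub84B counts per kb was 0.106 ± 0.0126 in Upd and 0.0298 ± 0.0203 in Chinmo, with 0.0744 ± 0.0206 in WT.

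The somatic alpha isotype alphaTub85E (arm 3R, 9731221 to 9733250, minus strand, 3 exons) changed most among the alpha-tubulin genes. Its WT libraries held 1923 CPM, 1440 CPM and 1850 CPM. The Upd libraries held 69.1 CPM, 14.03 CPM and 17.8 CPM, so the highest of them was far below the lowest WT library. The gene fell by 5.69 ± 0.61 on the log2 scale in Upd (edgeR, adjusted p = 2.76e-07). It fell by 6.76 without Upd 1, the highest of the 3 Upd libraries.

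In the libraries labelled chinmo RNAi, alphaTub85E stood at 382 CPM, 401 CPM and 898 CPM, also all below WT. The log2 change of -1.63 ± 0.51 missed the threshold (edgeR, adjusted p = 0.054), and it passed in 6 of 9 alternative fits that kept all libraries and without chinmo RNAi 3 (adjusted p = 0.0315). In Ci the values were 1465 CPM, 411 CPM and 950 CPM, which reach into the WT range. In Chinmo they were 3514 CPM, 2310 CPM and 4580 CPM, all above WT, with a log2 change of 0.9965 ± 0.50 that did not pass (edgeR, adjusted p = 0.224). In the order of group means, Chinmo, WT, Ci, chinmo RNAi and Upd, only the last step was called (edgeR, adjusted p = 1.08e-05).

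The maternal isotype alphaTub67C (arm 3L, 9681268 to 9683370, plus strand, 2 exons) was close to the limit of detection in every group. The Upd libraries had 5, 6 and 4 counts, and no other library had more than 4. It was the 1 member of the family that did not pass the filter on low counts. In a fit without that filter its log2 change in Upd was 1.06 (edgeR, adjusted p = 0.731).

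The general beta isotype betaTub56D (arm 2R, 19447319 to 19451600, minus strand) had the highest mean per kb of the beta-tubulin genes in each group. Its WT libraries had 1873 CPM, 1238 CPM and 1594 CPM, and the Upd libraries 1150 CPM, 1067 CPM and 1009 CPM, just below WT. The log2 change in Upd was -0.54 ± 0.35 (edgeR, adjusted p = 0.244). The Ci libraries had 1494 CPM, 545 CPM and 692 CPM, the Chinmo libraries 2951 CPM, 1679 CPM and 3166 CPM, and those labelled chinmo RNAi 1130 CPM, 1715 CPM and 1676 CPM, and all 3 groups overlapped WT. The gene passed the test of any difference among the 5 groups (edgeR, adjusted p = 0.00804). Between groups it was higher in Chinmo than in Upd (log2 change of Upd against Chinmo -1.27 ± 0.36, adjusted p = 0.00778) and than in Ci (1.51 ± 0.36, adjusted p = 0.0161), the second of which was lost without Chinmo 3, Ci 2 or Ci 3 (adjusted p = 0.0523, 0.101 and 0.0938).

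The somatic beta isotype betaTub60D (arm 2R, 24305881 to 24313099, plus strand) had 1311 CPM, 1083 CPM and 1197 CPM in WT. The Upd libraries had 307 CPM, 321 CPM and 330 CPM, a narrow range below every library of every other group. The gene fell by 1.91 ± 0.40 on the log2 scale in Upd (edgeR, adjusted p = 7.40e-04). The corresponding value of alphaTub85E, the other somatic isotype, was -5.69. Counts per kb of betaTub60D relative to alphaTub85E were 0.430 ± 0.0334 in WT and 9.48 ± 5.98 in Upd, with all 3 Upd libraries above all WT libraries.

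In Chinmo, betaTub60D stood at 1971 CPM, 2181 CPM and 5676 CPM, above all WT libraries, and library 3 was again far above the others. The log2 change was 1.45 ± 0.39 (edgeR, adjusted p = 0.0494). Without Chinmo 3 it was 0.53 (adjusted p = 0.303), and the call was also lost without WT 1, WT 2 or WT 3 (adjusted p = 0.112, 0.194 and 0.163), and with DESeq2-type size factors, a replicate block and a fit of the 2 groups alone. The group labelled chinmo RNAi had 1211 CPM, 2167 CPM and 1930 CPM, and those of Ci 1326 CPM, 486 CPM and 736 CPM. Both groups overlapped WT and did not pass the test. In the order of group means, Chinmo, chinmo RNAi, WT, Ci and Upd, only the last step was called (edgeR, adjusted p = 0.00805, 0.083 without Ci 1, and 0.0626 under upper-quartile scaling).

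The germline beta isotype betaTub85D (arm 3R, 9408383 to 9410282, minus strand, 2 exons) had 559 CPM, 978 CPM and 718 CPM in WT. The Upd libraries had 21.6 CPM, 4.91 CPM and 1.87 CPM, from 54, 14 and 6 counts. The gene fell by 6.33 ± 1.13 on the log2 scale in Upd (edgeR, adjusted p = 3.06e-04). It fell by 7.77 without Upd 1. In the libraries labelled chinmo RNAi it stood at 59.7 CPM, 24.4 CPM and 150 CPM, all below WT.

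Against WT, betaTub85D fell by 3.26 ± 0.97 on the log2 scale in chinmo RNAi, just past the threshold (edgeR, adjusted p = 0.0497). With chinmo RNAi 3 left out, the highest of the 3, the log2 change was -4.16 (adjusted p = 0.0436), and leaving out any other library of either group lost the call (adjusted p from 0.0654 to 0.164), as did a replicate block and the removal of ribosomal RNA genes. The Chinmo libraries had 353 CPM, 202 CPM and 3.32 CPM, the last from 2 counts, all below WT, with a log2 change of -2.004 ± 0.92 that did not pass (edgeR, adjusted p = 0.191). It passed without a filter on low counts and with limma-voom (adjusted p = 0.00259 and 0.0422). The Ci libraries had 473 CPM, 699 CPM and 697 CPM and overlapped WT. In the order of group means, WT, Ci, Chinmo, chinmo RNAi and Upd, only the last step was called (edgeR, adjusted p = 0.0254), and it missed the threshold without Upd 2, Upd 3 or chinmo RNAi 3 (adjusted p = 0.158, 0.148 and 0.118).

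The fourth beta-tubulin gene, betaTub97EF (arm 3R, 27967008 to 27988384, minus strand), was low in all groups. Its level was 2.31 ± 2.55 CPM in WT, 5.78 ± 6.73 CPM in Chinmo, 2.41 ± 2.02 CPM in Upd, 5.95 ± 4.11 CPM in Ci and 6.73 ± 6.73 CPM in chinmo RNAi, so each SD was of the size of the mean or not far below it. No library had more than 24 counts, and no comparison was called.

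Both gamma-tubulin genes had their highest group means in Upd. The somatic and zygotic isotype gammaTub23C (arm 2L, 2972891 to 2974858, plus strand) had 16.4 CPM, 9.55 CPM and 12.8 CPM in WT and 44.7 CPM, 32.6 CPM and 58.0 CPM in Upd. The groups did not overlap, and the log2 change of 1.80 ± 0.98 did not pass (edgeR, adjusted p = 0.163). Against the low values of Chinmo, 10.8 CPM, 8.56 CPM and 0 CPM, and of chinmo RNAi, 1.28 CPM, 2.57 CPM and 15.99 CPM, the Upd libraries were called higher (edgeR, adjusted p = 0.0419 and 0.0458). The call against Chinmo was lost when any 1 of the 6 libraries was left out, and the call against chinmo RNAi was lost without any 1 of them but chinmo RNAi 3.

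The maternal isotype gammaTub37C (arm 2L, 19183863 to 19185726, minus strand) had 60, 38 and 45 counts in the Upd libraries, a level of 17.1 ± 5.95 CPM. The WT libraries had 8, 0 and 0 counts, the Ci libraries 5, 3 and 3, and the Chinmo libraries and those labelled chinmo RNAi had none. Against WT the log2 change of 3.63 ± 1.45 missed the threshold (edgeR, adjusted p = 0.0589), and it passed in 6 of 9 alternative fits and without WT 1, the only WT library with a count (adjusted p = 0.00748). Without WT 1 the fitted log2 change was 8.23, so the value against WT rests on the 8 counts of that library. A count of 0 allows a level of up to 0.904 CPM over the 3 Chinmo libraries and up to 0.594 CPM over the 3 libraries labelled chinmo RNAi (3 counts per group, counting error only). The Upd mean was therefore at least 18.9-fold higher than in Chinmo and at least 28.8-fold higher than in chinmo RNAi (edgeR, adjusted p = 0.00848 and 0.00587). No library outside Upd had more than 8 counts, so the gene passed the filter on low counts through the Upd libraries alone. Its tests of Upd against the other groups are not independent of that filter.

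Read by comparison, most tubulin calls against WT were in Upd. Of the 9 tubulin genes tested, 4 were called lower in Upd than in WT (alphaTub84B, alphaTub85E, betaTub60D and betaTub85D) and none higher. Of all 10056 genes tested, 25.3% were called lower and 9.22% higher. With 9 genes tested, neither this count nor those below are read as particular to the family. The median log2 change of the tubulin genes was -0.73, and that of all genes -0.07. In Chinmo, 2 of 9 were called higher (alphaTub84B and betaTub60D) and none lower, where 1.75% of all genes were called higher and 1.05% lower. The median log2 change was 0.73 for the tubulin genes and -0.32 for all genes. Without WT 1, WT 2 or WT 3 the whole Chinmo comparison had 0 calls over all genes.

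In the libraries labelled chinmo RNAi, 1 of 9 tubulin genes was called lower (betaTub85D) and none higher, and 5.38% of all genes were called lower and 1.38% higher. These 680 calls over all genes became 73 without chinmo RNAi 1, 35 without chinmo RNAi 2, 114 without WT 2, 167 without WT 3 and 1963 without Chinmo 3, which shares the estimate of spread. The median log2 change was -0.89 for the tubulin genes and -0.06 for all genes. In Ci, 0 of 9 were called by edgeR, as by DESeq2 and limma-voom, and 1 of 9 had an unadjusted p under 0.05. Across all genes 0.00994% were called in Ci, which is 1 gene. The 4 comparisons share the WT libraries. Placing gammaTub37C at its detection limit in Chinmo and chinmo RNAi left both tubulin medians as they were.

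The scaling of the libraries moved the median of all genes by more than 0.1 on the log2 scale in 3 of these comparisons. The median in Chinmo was -0.32 with TMM scaling, -0.61 with DESeq2-type size factors and -0.18 with upper-quartile scaling. In Upd it was -0.07, -0.03 and 0.16, and in chinmo RNAi -0.06, -0.34 and -0.04. Relative to that median, alphaTub84B was 1.66, 1.85 and 1.98 higher in Chinmo and betaTub60D was 1.77, 1.96 and 2.07 higher. In Upd the relative log2 change was -1.18, -1.18 and -1.18 for alphaTub84B, -5.63, -5.64 and -5.66 for alphaTub85E, -1.84, -1.83 and -1.84 for betaTub60D, and -6.26, -6.31 and -6.27 for betaTub85D.

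**Figure D2:**
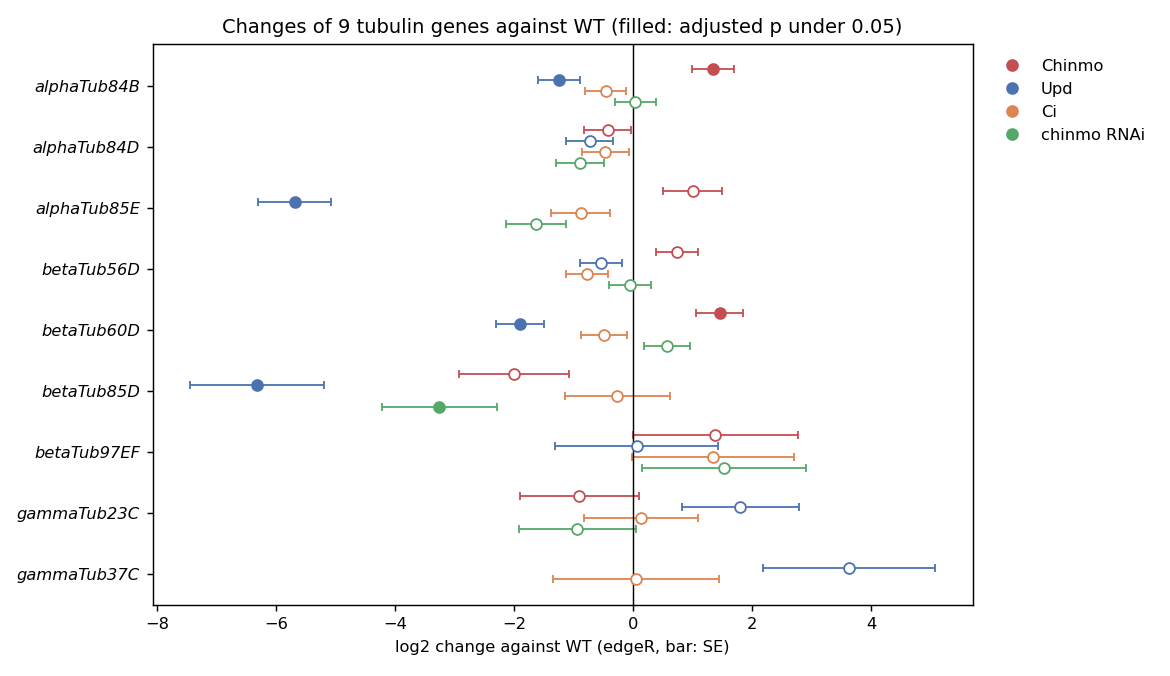
Log2 change against WT (edgeR, bars are the SE) of the 9 tubulin genes that passed the filter, in Chinmo, Upd, Ci and chinmo RNAi, with filled points for an adjusted p under 0.05. gammaTub37C is not drawn in Chinmo and chinmo RNAi, where all libraries were at 0. The largest falls are those of alphaTub85E, at -5.69, and betaTub85D, at -6.33, in Upd.

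Among the 6 pairs of manipulated groups, Upd again differed most. Against Chinmo, 7 of 9 tubulin genes were called, where 38.6% of all genes were called. The 5 lower ones in Upd were alphaTub84B, alphaTub85E, betaTub56D, betaTub60D and betaTub85D, and the 2 higher ones were the gamma-tubulin genes. Of these 2, gammaTub37C passed the filter on low counts through the Upd libraries alone. Its calls, here and against chinmo RNAi, are not independent of that filter. The call of gammaTub23C against Chinmo was lost in each of the 6 fits that left out 1 library. Against Ci, 3 of 9 were called, all lower in Upd (alphaTub85E, betaTub60D and betaTub85D), with 29.3% of all genes called. Against chinmo RNAi, 6 of 9 were called, 4 lower in Upd (alphaTub84B, alphaTub85E, betaTub60D and betaTub85D) and the 2 gamma-tubulin genes higher, with 30.2% of all genes called. Of these, alphaTub84B lost its call with DESeq2-type size factors, upper-quartile scaling and DESeq2 (adjusted p = 0.0695, 0.0734 and 0.109).

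Chinmo was higher than Ci for 4 of 9 tubulin genes (alphaTub84B, alphaTub85E, betaTub56D and betaTub60D), where 8.07% of all genes were called in either direction. Without Chinmo 3 none of these 4 remained past the threshold (adjusted p from 0.05005 to 0.112). Without Ci 2 all 4 also lost their call (0.0724 to 0.148), and without Ci 3 alphaTub85E and betaTub56D did (0.116 and 0.0938). Chinmo was higher than chinmo RNAi for 2 of 9, alphaTub84B with a log2 change of 1.31 ± 0.35 and alphaTub85E with 2.63 ± 0.53, with 3.78% of all genes called. Among the 9, gammaTub37C had no count in either group and could not be called. The call of alphaTub85E was lost without chinmo RNAi 1 or chinmo RNAi 2 (adjusted p = 0.0819 and 0.0641). Between Ci and chinmo RNAi 0 of 9 were called by edgeR, with 3 at an unadjusted p under 0.05, where edgeR called 10.6% of all genes. DESeq2 called 1 of 9, and 2107 of all 10056 genes, and limma-voom called 3 of 9, and 2178 of all 10056 genes. In the edgeR test of any difference among the 5 groups 6 of 9 passed, where 46.9% of all genes did. The exceptions were alphaTub84D, betaTub97EF and gammaTub23C. The 6 include gammaTub37C, which passed the filter on low counts through the Upd libraries alone.

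The make-up of the beta-tubulin counts differed between the groups. As a share of beta-tubulin counts per kb, betaTub56D, betaTub60D and betaTub85D took 48.4 ± 7.10%, 27.5 ± 1.011% and 24.0 ± 8.11% in WT. In Upd the shares were 81.2 ± 0.877%, 17.95 ± 1.63% and 0.697 ± 0.756%, so that the general isotype made up most of the beta-tubulin counts in each Upd library, from 80.2% to 81.9%. In the libraries labelled chinmo RNAi they were 52.1 ± 1.43%, 44.9 ± 2.80% and 2.76 ± 1.97%. Chinmo had 50.8 ± 9.81%, 44.6 ± 13.3% and 4.46 ± 3.91%. In Ci the share of betaTub85D was 32.1 ± 14.3% and ranged from 16.2% to 43.8%, which overlaps the WT range of 16.6% to 32.7%.

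Of the alpha-tubulin counts per kb, alphaTub85E took 32.0 ± 3.74% in WT, 30.7 ± 7.86% in Chinmo, 24.6 ± 7.68% in Ci, 13.0 ± 4.52% in chinmo RNAi and 2.05 ± 1.84% in Upd. The shares of alphaTub84B were 63.2 ± 2.43%, 67.4 ± 8.98%, 69.9 ± 5.55%, 83.5 ± 5.202% and 88.5 ± 0.802% in the same order. All libraries of Upd and of chinmo RNAi lay below all WT libraries for the share of alphaTub85E, and above them for that of alphaTub84B. Shares are given as a description with no test, since the shares of a family sum to a whole.

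**Figure D3:**
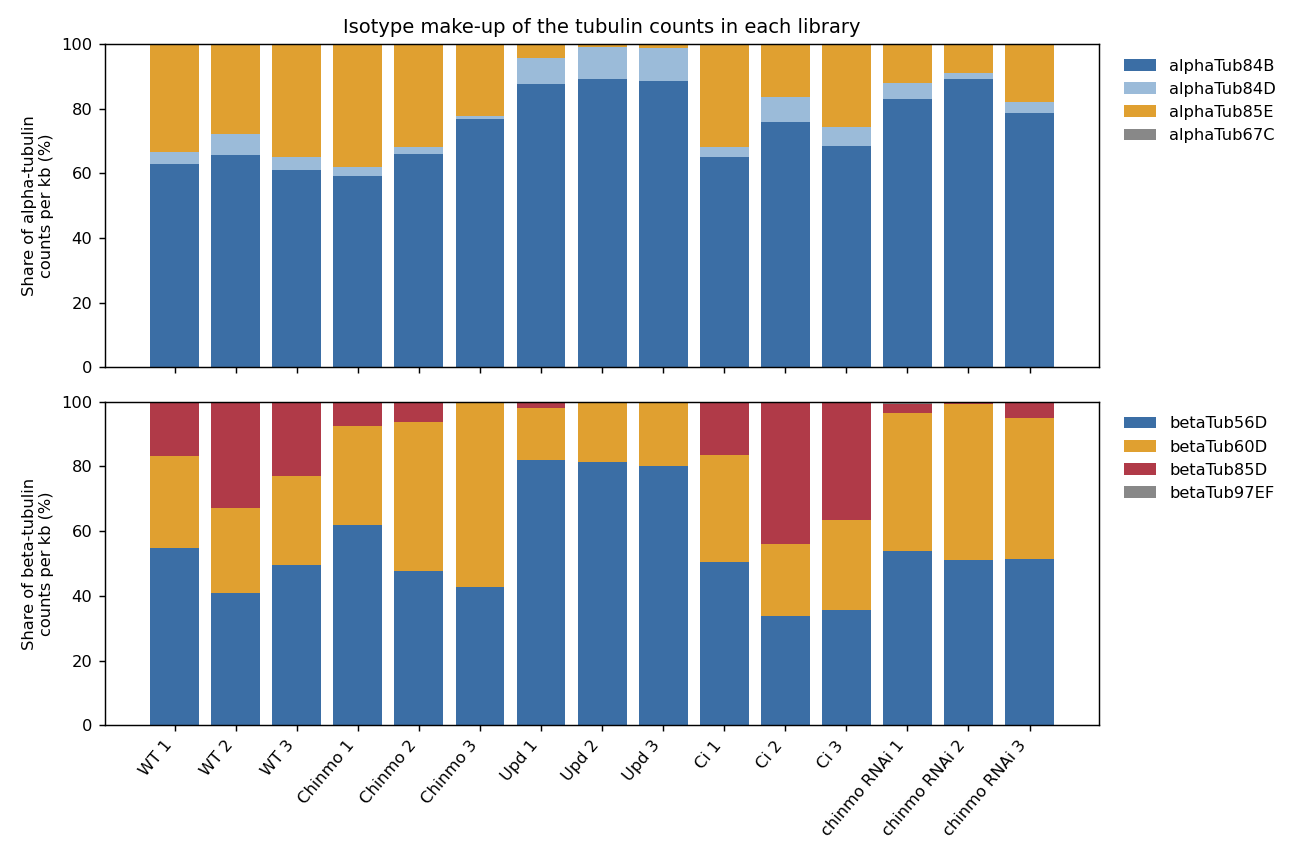
Share of alpha-tubulin (upper panel) and beta-tubulin (lower panel) counts per kb taken by each gene, in percent, in each of the 15 libraries. The 3 Upd libraries have 80.2% to 81.9% betaTub56D, and betaTub85D takes 16.6% to 32.7% in WT and 0.151% to 1.56% in Upd.

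The summed level of the alpha-tubulin genes was 3472 ± 207 CPM per kb in WT and 1044 ± 16.9 CPM per kb in Upd, and that of the beta-tubulin genes was 1724 ± 101 CPM per kb and 708 ± 39.6 CPM per kb in the same order. The ratio of alpha to beta counts per kb was 2.01 ± 0.0381 in WT, from 1.97 to 2.04. It was 1.42 to 1.53 in Upd and 1.59 to 1.84 in the libraries labelled chinmo RNAi, both below WT, and 2.32 to 3.33 in Chinmo, above WT. In Ci it ran from 1.85 to 2.28, which spans WT. The ratio of alphaTub84B alone to all beta-tubulin counts per kb was 1.20 to 1.34 in WT, 1.24 to 1.36 in Upd, 1.21 to 1.56 in Ci, 1.42 to 1.49 in chinmo RNAi and 1.37 to 2.56 in Chinmo. Both of the latter groups lay above WT, and Upd and Ci overlapped it.

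**Figure D4:**
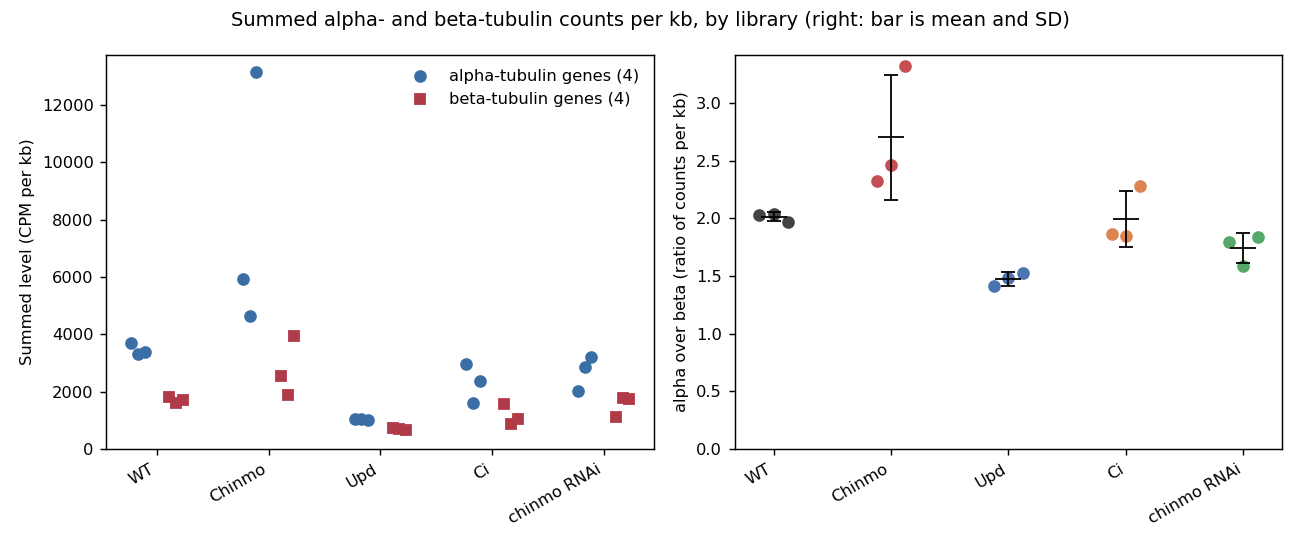
Left, summed level of the 4 alpha- and the 4 beta-tubulin genes (CPM per kb) in each library. Right, the ratio of the sums by library, with the group mean and SD (n = 3). The Upd libraries are the lowest in both sums and in the ratio, at 1.42 to 1.53, and the Chinmo libraries are the highest in the ratio, at 2.32 to 3.33.

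Markers of germ cells moved with these genes. For scale, 25.3% of all genes tested were called lower and 9.22% higher in Upd. The summed level of 30 spermatocyte and spermatid genes was 5950 CPM to 11038 CPM in WT, 4935 CPM to 9232 CPM in Ci, 3923 CPM to 4395 CPM in Chinmo, 3702 CPM to 5449 CPM in chinmo RNAi and 180 CPM to 288 CPM in Upd. Of the 28 tested, 19 were called lower in Upd, led by the sperm protein genes Mst77F, Mst84Db and Mst84Dc with log2 changes of -6.17, -6.78 (-7.57 without Upd 1) and -5.55. In chinmo RNAi Mst77F and fzo were called lower, with -2.001 and -3.38, and in Chinmo fzo with -3.63 (-4.47 without Chinmo 1). The call of Mst77F was lost without chinmo RNAi 1 or chinmo RNAi 2, that of fzo in chinmo RNAi without any 1 library but WT 1, and that of fzo in Chinmo without any WT library. The regulators aly, nht, comr and tomb had no count in chinmo RNAi, comr and tomb had none in Chinmo, and ProtA had none in Upd. The summed level of 15 early germline genes was 123 CPM to 241 CPM in WT and 2931 CPM to 3371 CPM in Upd, where 14 of 15 were called higher, led by the germline genes ovo, vas and aub with log2 changes of 7.34, 5.48 and 5.17. That of vas was 6.64 without WT 1, and that of aub 6.43 without WT 3. The germ cell marker vas was at 383 ± 29.5 CPM in those libraries against 8.57 ± 8.62 CPM in WT. The sum was 59.8 CPM to 155 CPM in Chinmo, 55.9 CPM to 208 CPM in chinmo RNAi and 228 CPM to 433 CPM in Ci, with bam, otu and zpg at 0 in Chinmo and nos and zpg at 0 in chinmo RNAi. In chinmo RNAi bgcn and AGO3 were called lower, each lost in at least 4 of the 6 fits that left out 1 library, and in Chinmo CG9925, lost in 5 of 6. The part of these germ cell markers in the betaTub85D and gammaTub37C results was not tested.

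Set against the late germline genes of the same library, betaTub85D was not proportional to them in every group. For each 1000 CPM of the 30 spermatocyte and spermatid genes, WT had 94.0 CPM, 88.6 CPM and 93.8 CPM of betaTub85D, and Ci had 95.9 CPM, 100.5 CPM and 75.5 CPM. The libraries labelled chinmo RNAi had 10.9 CPM, 5.45 CPM and 40.6 CPM, all below WT and Ci. The Chinmo libraries had 86.4 CPM, 46.0 CPM and 0.847 CPM, and the Upd libraries 74.8 CPM, 23.1 CPM and 10.4 CPM, both with a wide spread. These ratios were chosen after the values were seen and have no test.

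**Figure D5:**
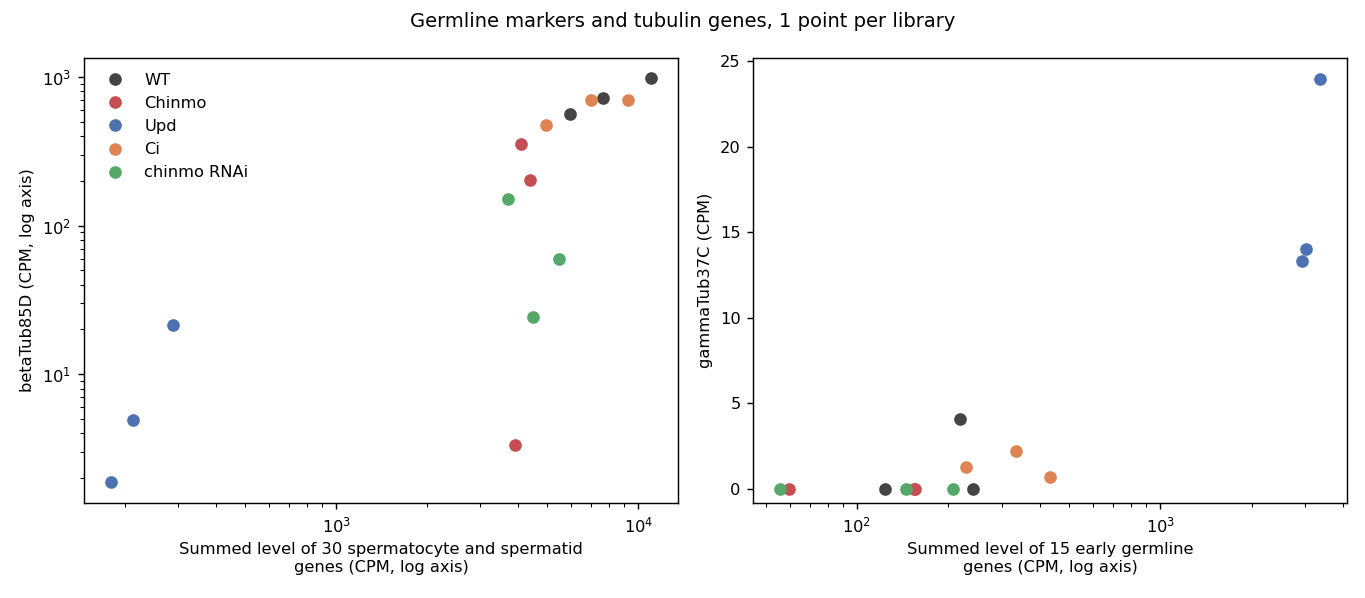
Left, betaTub85D against the summed level of 30 spermatocyte and spermatid genes, both in CPM on log axes. Right, gammaTub37C (linear axis) against the summed level of 15 early germline genes (log axis). Each point is a library. The 3 libraries labelled chinmo RNAi have 3702 CPM to 5449 CPM of late germline genes but 24.4 CPM to 150 CPM of betaTub85D, and the Upd libraries stand alone at the right of the second panel.

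Markers of somatic cells moved as well. Of 15 cyst lineage genes, 10 were called higher and 4 lower in Upd. The smallest adjusted p belonged to magu, CadN and Wnt4, which rose with log2 changes of 4.54, 5.03 and 5.38. The list did not move as one. Its gene zfh1 rose in Upd from a WT level of 15.9 ± 6.78 CPM to 456 ± 85.6 CPM, and tj rose too. The gene eya fell there from a WT level of 267 ± 66.5 CPM to 36.1 ± 25.6 CPM. These genes were picked by name, and no test is given for them. The sum of the 15 genes, which hides such falls, was 3784 CPM to 4784 CPM there against 636 CPM to 839 CPM in WT. In Chinmo 1 of them was called higher, which was chinmo itself, a call lost without Chinmo 3 or any WT library. The muscle sheath list, relevant since alphaTub85E and betaTub60D are also muscle isotypes, summed to 578 CPM to 725 CPM in WT and 425 CPM to 505 CPM in Upd. Of its 8 tested genes 3 were called lower in Upd, where 25.3% of all genes were called lower. They were the actin gene Act87E, the troponin C gene TpnC73F and the myosin light chain gene Mlc2, with log2 changes of -6.10, -6.45 and -3.48. Without Upd 1 those of Act87E and Mlc2 were -7.76 and -4.63, and without WT 1 that of TpnC73F was -5.74. The level of Act87E was 2.31 ± 2.85 CPM in Upd against 157 ± 42.5 CPM, and the myosin heavy chain gene Mhc was at 6.19 ± 9.05 CPM in WT and 5.06 ± 5.47 CPM in Upd. In chinmo RNAi the tropomyosin gene Tm1 was called higher, a call lost without any 1 library but chinmo RNAi 3, and the sum was 822 CPM to 1063 CPM. It was 570 CPM to 775 CPM in Chinmo and 523 CPM to 742 CPM in Ci. The part of these markers in the results on alphaTub85E and betaTub60D was not tested.

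Of the other lists of cells that the sort could hold, hub genes had 2 of 6 called higher and 3 lower in Upd, among them dpp and hh lower and upd1 higher. The Upd group carried UAS-Upd, so reads of the transgene and of hub cells cannot be told apart in its upd1 level. The part of each was not tested. In Chinmo dpp was called higher, lost without Chinmo 3 or any WT library, and in chinmo RNAi shg, lost without any 1 library but chinmo RNAi 3. Of the 3 hemocyte genes tested crq was called lower in Upd. Of the 4 neuron and glia genes tested nSyb was lower there and para and elav were higher, the latter pair lost without WT 1 or WT 3 for para and without any 1 library for elav. The summed levels moved in other groups too. Hemocyte genes summed to 246 CPM to 450 CPM in WT, 534 CPM to 947 CPM in Chinmo and 740 CPM to 833 CPM in chinmo RNAi, with NimC1 at 0 in Chinmo. In chinmo RNAi the neuron and glia genes summed to 269 CPM to 429 CPM, against 57.0 CPM to 160 CPM in WT, and the hub genes to 1544 CPM to 2043 CPM, against 614 CPM to 730 CPM. Hub genes summed to 922 CPM to 1638 CPM in Chinmo and 1176 CPM to 1687 CPM in Upd, where the sum includes upd1. All of these Chinmo, Upd and chinmo RNAi sums lay above every WT library. The hemocyte sum in Upd, 139 CPM to 159 CPM, lay below every WT library. Neuron and glia sums of 108 CPM to 176 CPM in Chinmo and 129 CPM to 212 CPM in Upd overlapped WT. The part of any of these sums in the tubulin results was not tested. The accessory gland and seminal vesicle list had 1 tested gene and no call.

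The genes that work with tubulin were counted by function. Over all genes tested, 25.3% were called lower and 9.22% higher in Upd, and 5.38% lower and 1.38% higher in chinmo RNAi. Of 19 genes of the sperm axoneme, the microtubule core of the sperm tail, 17 were tested and 13 were called lower in Upd and 4 in chinmo RNAi. None was called in Chinmo. Their summed level was 907 CPM to 1575 CPM in WT, 74.8 CPM to 108 CPM in Upd, 109 CPM to 316 CPM in chinmo RNAi, 274 CPM to 448 CPM in Chinmo and 1039 CPM to 1990 CPM in Ci. The filament gene Tektin-A fell in Upd from a WT level of 73.6 ± 24.6 CPM to 0.237 ± 0.210 CPM (edgeR, adjusted p = 1.61e-04), a level that rests on 2 counts. The gene hmw fell from 255 ± 84.2 CPM to 3.54 ± 3.60 CPM in Upd (adjusted p = 1.75e-04), and CG6971, an axonemal dynein light intermediate chain gene, from 68.4 ± 48.7 CPM to 0.383 ± 0.400 CPM, from 3 counts (adjusted p = 3.36e-04). The axonemal dynein heavy chain gene Dhc36C fell by 3.19 ± 0.73 on the log2 scale in chinmo RNAi (adjusted p = 0.0156), a call lost without chinmo RNAi 1, chinmo RNAi 2 or WT 3 (adjusted p = 0.0595, 0.0819 and 0.0619). There nmdyn-D7 fell by 4.73 ± 0.97 (adjusted p = 0.0108), lost without chinmo RNAi 1 or chinmo RNAi 2, and hmw fell by 3.21 ± 0.92 (adjusted p = 0.0424), lost without any 1 library but chinmo RNAi 3. Without chinmo RNAi 3 their log2 changes were -5.92 and -4.07.

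Of 15 genes for tubulin modification, such as the ligases that add glutamate or glycine chains, 14 were tested, and 8 were called lower in Upd and none elsewhere. In Upd the ligase genes CG16716 (TTLL6A), CG5987 (TTLL6B) and TTLL3B had log2 changes of -5.57 ± 1.05, -3.98 ± 0.82 and -5.22 ± 1.10 (edgeR, adjusted p = 2.76e-04, 6.34e-04 and 7.76e-04). That of CG16716 was -6.28 without Upd 1 and -4.96 without Upd 3. Both further tubulin genes of the annotation that were looked up, CG32396 (betaTub65B) and CG7794, were lower in Upd, at 1.97 ± 1.44 CPM against 79.7 ± 32.1 CPM in WT and at 3.53 ± 1.83 CPM against 73.5 ± 20.8 CPM (adjusted p = 2.59e-04 and 0.0014). Neither was called in the other comparisons with WT, and in chinmo RNAi, where betaTub85D was lower, they stood at 55.8 ± 14.04 CPM and 75.0 ± 44.0 CPM.

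Of 22 tested genes for microtubule-associated proteins, 2 were called higher and 4 lower in Upd, where 9.22% of all genes were called higher and 25.3% lower. The kinesin gene pav, which acts in cytokinesis, rose from 7.84 ± 4.94 CPM to 146 ± 12.6 CPM (edgeR, adjusted p = 0.0049), and Jupiter fell by 1.29 ± 0.28 on the log2 scale (adjusted p = 0.00113). The katanin-like gene kat-60L1 fell by 3.82 ± 1.05 (adjusted p = 0.00647). In chinmo RNAi 2 were called higher, shot with a log2 change of 1.29 ± 0.33 and Map205 with 1.32 ± 0.40, and asp was lower by -3.32 ± 0.88 (adjusted p = 0.0251, 0.0481 and 0.0291). The calls of shot and Map205 were lost when any 1 of the 6 libraries was left out, and that of asp without any 1 of them but WT 1.

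Of 11 genes of the gamma-tubulin ring complex and its recruitment, 1 was called higher and 1 lower in Upd. They were Grip75, with 44.9 ± 9.09 CPM against 8.80 ± 3.19 CPM in WT (edgeR, adjusted p = 0.0353), and CG42787 (Mzt1), with 1.32 ± 0.651 CPM against 17.1 ± 10.8 CPM (adjusted p = 0.0232). The call of Grip75 was lost when any 1 of the 6 libraries was left out, and that of CG42787 without any Upd library or WT 2. In chinmo RNAi the centrosomal gene cnn was lower, at 28.0 ± 19.7 CPM against 164 ± 36.6 CPM (adjusted p = 0.0161), and its call was lost without chinmo RNAi 1, chinmo RNAi 2, WT 2 or WT 3 (adjusted p = 0.0678, 0.0676, 0.0601 and 0.056). Of 19 genes for tubulin folding 1 was called, the prefoldin subunit gene Pfdn2. It was higher in Upd by 1.28 ± 0.45 and in Chinmo by 1.88 ± 0.46 on the log2 scale (adjusted p = 0.0296 and 0.0365), and these calls were lost in Upd without any 1 library but WT 1, and in Chinmo without Chinmo 3 (log2 change 1.19) or any WT library. The 1 gene called in Ci over all genes was in none of these lists.

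Profiles most like those of the tubulin genes were sought among 4824 protein-coding genes that passed the filter. Genes whose symbol starts with CG or CR were left out, so nearer profiles among those are not seen. The measure was the mean absolute difference of centred log2 CPM over the 15 libraries. Nearest to alphaTub84B were Eno, Jupiter and Pp1alpha-96A, with differences of 0.16, 0.23 and 0.23. Nearest to betaTub85D were h-cup, Crtp and Actn3, with 0.46, 0.49 and 0.58, and nearest to alphaTub85E were Npc2b, LManI and GstE2, with 0.35, 0.53 and 0.56. For betaTub60D they were l(2)k09913, blow and ERp60, and for betaTub56D ATPsynG, mfas and Mdh1, all within 0.23 to 0.24. Nearest to gammaTub37C were E(spl)m2-BFM, 2mit and Atg10, with 0.55 to 0.65. For alphaTub84D they were Klp10A, Cchl and Dic1 at 0.28 to 0.30, for gammaTub23C mRpS2, thoc5 and RfC3 at 0.48 to 0.54, and for betaTub97EF, which has few counts, tw, Hsc20 and sug at 0.81 to 0.94. These lists are a description, and the libraries of a group share its genotype and depth.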

How the data were processed

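The measurements were gene counts from RNA sequencing of polyadenylated RNA, read paired-end, for all 15 libraries. The authors deposited raw read counts per gene. The submitters' processing notes list STAR, HTSeq, Picard, bcl2fastq and DESeq2 as tools, with the builds dm6 and BDGP6. No version or strand setting is given in the sources used here. A second deposited table, of counts scaled by library, was not used. The 5 summary lines that name no gene held 23.5% to 38.6% of a library and were left out. Ribosomal RNA genes took 12.8% to 32.3% of the gene counts, and the tubulin genes 0.408% to 1.65%.

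Counts were scaled by TMM and tested with edgeR 4.0.16 (R 4.3.3, quasi-likelihood, robust, 1 fit of all 5 groups, filterByExpr) over 10056 genes. P-values were Benjamini-Hochberg adjusted over these genes and called under 0.05. The common dispersion was 0.4269. The scripts were tested on simulated data with changes set in a manipulated group. Of 4-fold changes, 12.5% to 18.8% were recovered against WT, and of 16-fold changes 56.2% to 67.7%. A gene that did not pass is therefore not shown to be unchanged. These rates average over genes of all levels, with few genes changed in each simulation. They do not give the recovery for the tubulin genes, or for Upd, where many genes were called. With 3 libraries a group an exact permutation test cannot go below p = 0.1, so none is given. Levels per kb used the union of exons in the BDGP6.54 annotation. Alternatives were other scalings and filters, DESeq2 1.42.0, limma-voom (limma 3.58.1), a replicate block, removal of ribosomal RNA genes, a fit of the 2 groups compared, and leaving out each library. The members and the 14 gene lists (183 genes, all found) were chosen with earlier results of these data known. From each list up to 3 called genes with the smallest adjusted p were named per comparison with WT. For each tubulin gene that passed the filter its 3 nearest profiles were found among protein-coding genes whose symbol does not start with CG or CR. No sequences are shown.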

Additional observations from a re-analysis of the deposited data

How the results depend on the processing

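The 4 tubulin calls in Upd against WT held in every fit without 1 Upd or WT library, and in the other alternatives except for alphaTub84B under upper-quartile scaling. The number of tubulin genes called in Chinmo against WT was 2, and it was 0 with DESeq2-type size factors in edgeR, 1 with DESeq2, 0 with only the 2 groups compared, 3 without a filter and with limma-voom, and 0 to 2 when 1 library was left out. In chinmo RNAi against WT the number was 1, and it was 2 with DESeq2-type size factors, without a filter, with limma-voom and with only the 2 groups compared, 3 with DESeq2, 0 without ribosomal RNA genes and 0 to 3 when 1 library was left out. In Upd against WT it was 8 with only the 2 groups compared, where 8 were tested and 5350 of all 9076 genes tested were called. The number of tubulin genes tested was 10 without a filter. With only the 2 groups compared it was 7 in Chinmo and 8 in chinmo RNAi. Over all genes, the 282 calls in Chinmo against WT became 1617 with DESeq2, 837 with limma-voom, 814 without a filter, 662 with upper-quartile scaling, 11 with the replicate block and 1 with the 2 groups compared, and the 680 in chinmo RNAi became 1678 with DESeq2, 1567 with limma-voom, 1388 with the 2 groups compared, 1062 without a filter and 358 with the replicate block. The 3473 in Upd became 5350 with the 2 groups compared, and 4655 of 10628 genes without Chinmo 3, where 6 of 9 tubulin genes were called. The deviations of same-numbered libraries from their group means had r from -0.0921 to 0.238 over 30 pairs. Those of libraries with different numbers had r from -0.171 to 0.135 over 60 pairs. The numbers were not taken to pair libraries, and with 3 libraries a group these values cannot exclude a shared batch. With the replicate block 0 tubulin genes were called in Chinmo, the log2 change of betaTub97EF in Upd turned to -0.23 and that of betaTub56D in chinmo RNAi to 0.0059. Other changes of sign were all in uncalled values. For alphaTub84B in chinmo RNAi the log2 change was -0.26 with DESeq2-type size factors and with DESeq2, -0.0696 with the 2 groups compared and -0.0717 to 0.21 when 1 library was left out. When 1 library was left out it ranged from -0.66 to 1.40 for betaTub97EF in Upd, from -0.20 to 0.11 for betaTub56D in chinmo RNAi, from -0.42 to 0.51 for gammaTub23C in Ci and from -0.55 to 4.65 for gammaTub37C in Ci. With the longest transcript as the length, the share of betaTub56D was 82.55% in Upd and 54.41% in chinmo RNAi, and that of betaTub60D was 26.27% in WT. The cause was not tested. Depth limits alphaTub67C, betaTub97EF and both gamma-tubulin genes.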
